A study of Mus musculus with 10 samples.

Results

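The genes described here are those whose level in mouse lumbar spinal cord lay on one side in all 7 mice carrying a human TARDBP transgene and on the other side in all 3 nontransgenic mice. They were found by comparing the TMM-scaled CPM of both groups (the reads of a gene scaled to the size of its library), and a gene that meets this condition is called separating below. Of 15191 genes with enough reads to be tested, 2188 (14.4%) were separating, 1220 with higher (8.03%) and 968 with lower (6.37%) levels in transgenic cord. Over all 22024 genes of the table the number was 2239, of which 51 had too few reads to be tested. The levels that chose these genes also enter the comparison of the groups, so their differences are given as a description of the 10 libraries.

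PolyA RNA was sequenced from the lumbar cord of female mice aged 3 months, 1 library per mouse. Animals 1, 2, 3, 7 and 9 (M337V, n = 5) had the human TARDBP gene with the M337V mutation found in amyotrophic lateral sclerosis (ALS). Animals 8 and 10 (WT, n = 2) had the normal human gene. In both lines a human genomic fragment on a bacterial artificial chromosome was exchanged into the Rosa26 locus of embryonic stem cells, so that the human gene came with its own flanking sequence, and the mouse Tardbp gene was left in place. Founders were crossed to C57BL/6J mice for at least 3 generations, and the controls of the study are described as littermates of the same age. The nontransgenic group (NTg, n = 3, animals 4, 5 and 6) is labelled C57BL/6. Whether the sequenced mice had 1 or 2 transgenic alleles is not given in the sources used here.

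TARDBP encodes TDP-43, a mostly nuclear protein that binds RNA, regulates splicing, keeps cryptic exons out of messenger RNA and lowers its own messenger through its own transcript. In ALS it is found in aggregates in the cytoplasm of motor neurons and glia. Much of the RNA of the cord comes from oligodendrocytes, the cells that wrap axons in myelin, beside neurons, astrocytes, microglia and vessels.

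Library totals lay between 18724888 and 21041474 counts. Human TARDBP was listed at 113.7 to 140.7 CPM in the 7 transgenic libraries (123.5 ± 9.04, SD), at 118.3 CPM (2415 counts) in the library labelled NTg 4, at 0.0493 CPM (1 count) in NTg 5 and at 0.186 CPM (4 counts) in NTg 6. The library labelled NTg 4 therefore goes against its label. The numbers called and the counts of several lists are given below with and without it. Given only with it are G+C bins, shares by chromosome and around Rosa26, each genotype against NTg, and genes named after their values were seen. In an exact two-sided permutation test the 7 labelled transgenic and 3 labelled NTg libraries gave p = 0.0667 for human TARDBP (0.1 adjusted over 3 tests), where the smallest p possible is 0.0167. Mouse Tardbp stood at 254 ± 17.3 CPM in transgenic cord (SD, n = 7) and 244 ± 6.20 in NTg (SD, n = 3; exact permutation p = 0.383), and human plus mouse TARDBP together were higher in every transgenic library (exact permutation p = 0.0167, adjusted p = 0.0501). Caudal Hox genes, which mark the posterior cord, were low in WT 8 (240 counts) and M337V 3 (789 counts), against 2295 to 4584 counts elsewhere. The labels name the NTg libraries as numbers 2 to 4 of the series, animals 7 to 10 as 5 to 8 and M337V 1 to 3 as 10 to 12, so that library order and transgene cannot be told apart.

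Most separating genes differed little. The median absolute log2 difference was 0.24, 1990 of the 2188 differed by less than 1.5-fold, and the median gap between the nearest transgenic and the nearest NTg library was 0.05 on the log2 scale. A gap of at least 0.1 was found for 550 genes. The median fold was 1.17 for higher and 1.20 for lower genes, and the median log2 difference over all genes tested was -0.01. The edgeR quasi-likelihood test called 1521 genes (10.0%) between transgenic and NTg cord at a Benjamini-Hochberg adjusted p below 0.05, 881 higher (5.80%) and 640 lower (4.21%). Of the separating genes 1314 were called, 803 higher and 511 lower, and 207 called genes were not separating. With CPM that were not TMM-scaled the separating genes numbered 800 higher and 1448 lower, so the balance of directions moves with the scaling.

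**Figure D1:**
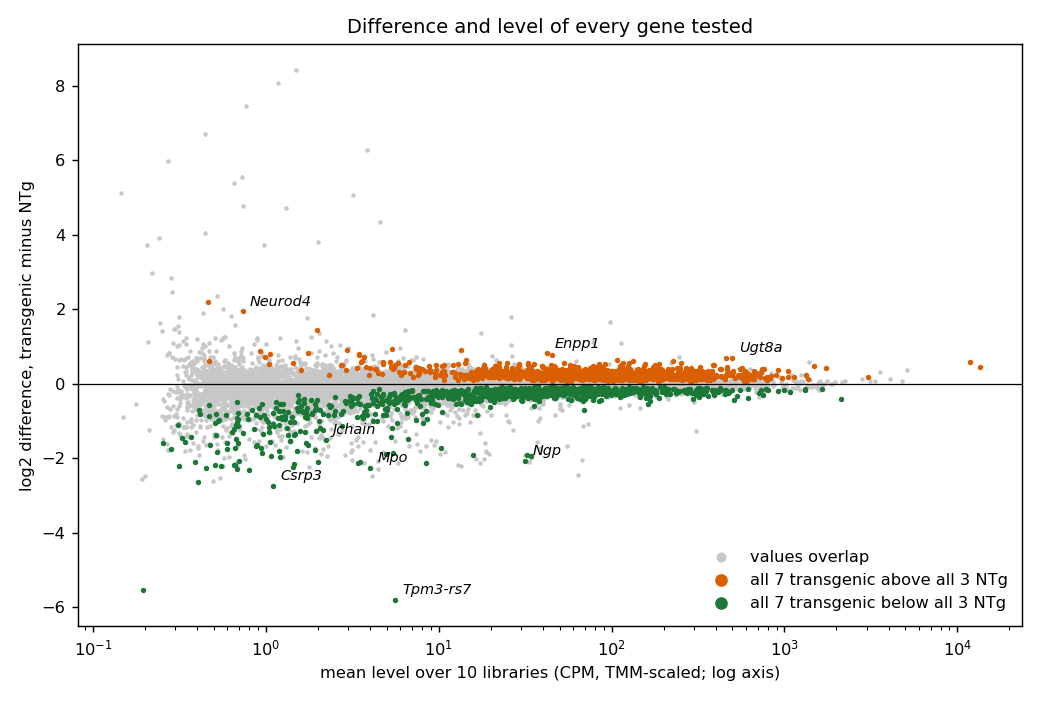
Each point is 1 of the 15191 genes tested, placed by its mean level over the 10 libraries (x axis, CPM, log scale) and by its log2 difference between transgenic and NTg cord (y axis). Separating genes are orange (1220 higher) or green (968 lower), grey genes overlap, and most separating genes lie near 0, with Tpm3-rs7 at -5.79 far below it.

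The number called rests on single libraries. It was 447 (2.95% of genes tested) without the library labelled NTg 4, with 347 higher and 100 lower, and in that comparison 3215 genes (21.2%) separated from NTg 5 and 6. It was 36 without NTg 6, 847 without NTg 5, 901 without M337V 2, 980 without M337V 3 and 991 without WT 10. The place of a left-out control was read on the scaling and gene filter of all 10 libraries, which were not recomputed, so the counts that follow do not sum to the 3215 above. With NTg 4 left out, 1687 genes were higher in all transgenic libraries than in NTg 5 and 6, and NTg 4 lay on the NTg side of all 7 for 1220 of them (72.3%) and inside the transgenic range for 445 (26.4%). For the 1548 lower genes chosen the same way NTg 4 lay on the NTg side in 62.5% and inside the transgenic range in 35.6%. Treated in the same way, NTg 5 lay on the NTg side for 68% of higher and 54.7% of lower genes, and NTg 6 for 87.2% and 79%.

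The lowest transgenic library of the separating higher genes was most often M337V 1 (396 of 1220, 32.5%), followed by M337V 9 (267) and M337V 7 (241). The transgenic library farthest from NTg was most often WT 10 (360) or WT 8 (291). On the NTg side NTg 5 (542) and NTg 4 (508) came nearest to the transgenic range more often than NTg 6 (170). Of the 968 lower genes NTg 5 was the nearest control in 553 (57.1%), and M337V 7 the nearest transgenic library in 259.

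The separating genes of both directions differed in base composition, which the rule did not use. The longest transcript of the separating higher genes had a median G+C content of 42.8%, that of the lower genes 54.8% and that of all genes tested 49.9%. Among the 10% of genes with the lowest G+C content (31.0 to 41.4%) 28.6% were separating higher and 0.858% lower, and among the 10% with the highest (58.0 to 72.8%) 0.726% were higher and 13.9% lower. The higher genes also spanned more of the genome (median 43819 bases, against 20200 for lower genes and 25043 for all) and stood at a higher level (median 85.1 CPM, against 28.3 and 24.4). After the smooth trend of each library over G+C content and transcript length was removed, 1425 genes separated (840 higher and 585 lower), edgeR called 491 (326 higher and 165 lower), and 1027 of the 2188 separating genes still did. The part of G+C content in single results was not tested beyond this refit.

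**Figure D2:**
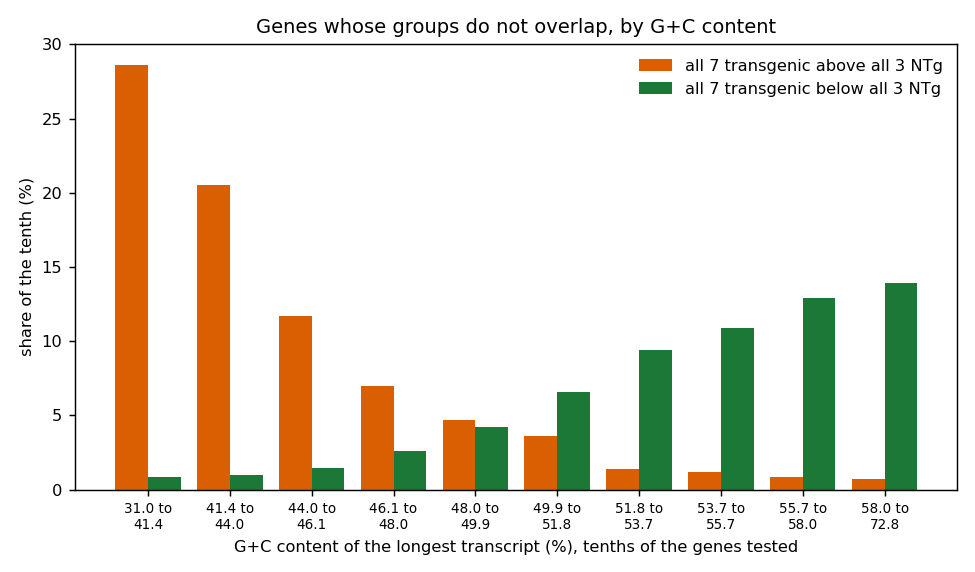
Genes tested were divided into 10 bins of equal size by the G+C content of their longest transcript (x axis, percent). Bars give the share of each bin that was separating higher (orange) or lower (green). The higher share falls from 28.6% in the lowest bin to 0.726% in the highest, and the lower share goes from 0.858% to 13.9%.

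The contrast in composition can be seen in coding sequence of a higher and a lower gene, Prrg1 and Hrh3, each named below. In the 90-base stretches from GENCODE transcripts (GRCm38) that follow, capitals mark G and C, which make up 33.3% of the first (bases 212 to 301 of the Prrg1 coding sequence) and 62.2% of the second (bases 126 to 215 of Hrh3).
Prrg1: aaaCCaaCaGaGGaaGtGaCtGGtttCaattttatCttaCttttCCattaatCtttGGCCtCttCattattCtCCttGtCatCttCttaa
Hrh3: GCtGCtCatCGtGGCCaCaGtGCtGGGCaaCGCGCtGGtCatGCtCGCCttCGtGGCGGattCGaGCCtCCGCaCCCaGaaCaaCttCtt
Prrg1 (chrX:78449613-78583896), a membrane protein with a Gla domain, was at 32.0, 30.7 and 28.1 CPM in the NTg libraries 4, 5 and 6 and between 39.5 and 61.3 CPM (median 53.0) in transgenic cord, a log2 difference of 0.76 ± 0.13 (SE, edgeR adjusted p = 0.00814). Hrh3 (chr2:180099465-180104488), the histamine H3 autoreceptor of neurons, stood at 22.1, 21.1 and 21.4 CPM in NTg and between 15.5 and 16.6 CPM (median 16.0) in transgenic cord. Its log2 difference was -0.43 ± 0.05 (edgeR adjusted p = 0.00391). Its groups lay apart by 0.34 on the log2 scale, with little spread inside either. With the composition trend removed the differences of Prrg1 and Hrh3 were 0.51 and -0.31, both still called.

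Of the 34 gene lists, that of oligodendrocytes and myelin had the most genes called higher. The counts of every list below stand beside the shares over all genes tested. These were 5.80% called higher, 4.21% called lower, 8.03% separating higher and 6.37% separating lower. Of 30 measured genes on the oligodendrocyte and myelin list 17 rose and none fell, 14 were separating, and the list median was 0.27, against -0.01 over all genes. The summed level of the list was 30240, 32930 and 27850 CPM in the NTg libraries 4, 5 and 6 and ran from 36940 to 44770 CPM (median 41590) in transgenic cord, without overlap. In bulk tissue a change in the number of cells of a type and a change in RNA per cell cannot be told apart. The median G+C content of the list was 52.3%, above that of all genes tested. With the composition trend removed 19 of its genes rose and 21 were separating.

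Ugt8a (chr3:125865271-125938619), the enzyme for galactosylceramide of the myelin membrane, stood at 408, 350 and 279 CPM in NTg and 497 to 643 CPM (median 559) in transgenic cord, a log2 difference of 0.70 ± 0.11 (edgeR adjusted p = 0.00647). Ermn (chr2:58045113-58052864), an actin-binding protein of mature oligodendrocytes, stood at 322, 358 and 280 CPM in NTg and 453 to 586 CPM (median 505) in transgenic cord. The log2 difference of Ermn was 0.69 ± 0.09 (edgeR adjusted p = 0.0046). Tspan2 (chr3:102734529-102801513), a tetraspanin of early myelination, lay at 296, 326 and 287 CPM against 393 to 467 (median 416), a log2 difference of 0.49 ± 0.06. These 3 genes did not overlap between groups, and each was called under all alternatives that gave a value.

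Other members of the list, named here after their values were seen, showed smaller steps. Mbp, myelin basic protein, rose by a log2 difference of 0.45 ± 0.08 from 10722 ± 687 CPM in NTg to 14605 ± 1208 in transgenic cord (SD). Cldn11, the claudin of myelin tight junctions, rose by 0.40 ± 0.08 and Mog, a surface glycoprotein of myelin, by 0.42 ± 0.09. Cnp, which encodes a phosphodiesterase of the myelin cytoplasm, rose by 0.23 ± 0.07 with overlapping groups. Mag, an adhesion molecule between myelin and axon, lay apart in both groups (762, 794 and 706 CPM against 805 to 997) but had an adjusted p = 0.0702. Sox10, the transcription factor that keeps the lineage, had a log2 difference of 0.16 (adjusted p = 0.0735), and Myrf, the regulator of myelin genes, one of 0.14 (adjusted p = 0.323). The 17 calls of the list became 4 when NTg 6 was left out and 7 when NTg 4 was. They became 7 without M337V 1 to 3 and 10 without both NTg 4 and WT 8.

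**Figure D3:**
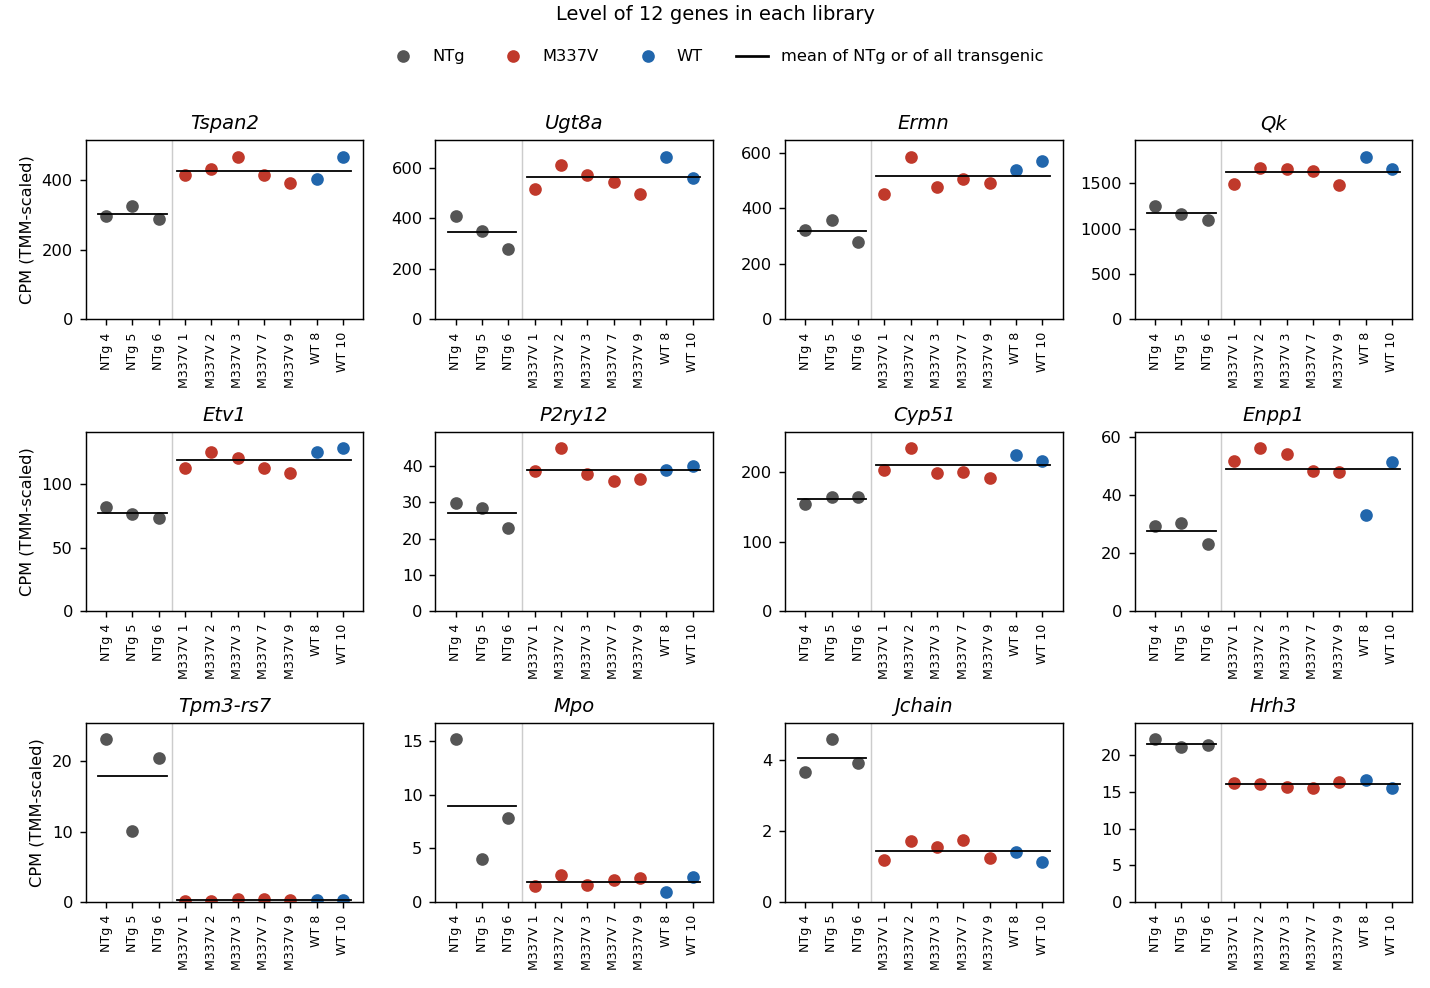
Each panel shows the level of 1 gene (y axis, CPM, TMM-scaled, from 0) in each of the 10 libraries (x axis). Points are NTg (grey), M337V (red) and WT (blue), and lines mark the mean of the 3 NTg and of the 7 transgenic libraries. In each of the 12 panels the 7 transgenic points lie on one side of the 3 NTg points, and Enpp1 of WT 8 (32.9 CPM) comes closest to its NTg range (up to 30.3 CPM).

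Tspan2 has 2 start windows in RefSeq. The one that spans the start of the gene given above (GRCm38.p6, chr3:102734520-102734819) lies mostly inside the gene and held no SOX core motif. The other lies wholly inside the gene (chr3:102734965-102735264, plus strand). It is printed because it holds the motif, Sox10 is an established activator of myelin genes, and Tspan2 was one of the members called under every alternative. Capitals mark the SOX core motif.
Tspan2: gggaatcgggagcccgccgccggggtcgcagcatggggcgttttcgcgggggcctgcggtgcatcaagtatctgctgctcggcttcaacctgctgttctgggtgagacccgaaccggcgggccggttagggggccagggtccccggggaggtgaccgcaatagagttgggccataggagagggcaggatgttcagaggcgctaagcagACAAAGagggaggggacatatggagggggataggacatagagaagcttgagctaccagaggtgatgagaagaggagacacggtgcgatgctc
ACAAAG, searched on both strands from 250 bases before to 50 after each start, was found in 190 of 1254 promoters of separating higher genes (15.2%), in 2114 of 15057 promoters of genes tested and in 18.7% of all promoters. It was found in 6 of 17 promoters of the separating myelin genes, which belong to Gjb1, Mag, Plekhb1 and Tspan2, and in 9 of 29 (31.0%) of the whole myelin list. Of the 3 windows of Mag 2 overlap and share the same match, which is counted for each. A match is a run of letters and does not show binding.

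Of 16 measured genes of the oligodendrocyte precursor list 4 rose and 1 fell, with a median of 0.12. Enpp6, a choline phosphodiesterase of newly formed oligodendrocytes, stood at 40.7, 43.0 and 36.6 CPM in NTg and 46.8 to 82.5 CPM (median 58.3) in transgenic cord, a log2 difference of 0.56 ± 0.14 (edgeR adjusted p = 0.0313). Cspg4, the NG2 proteoglycan of precursors and of pericytes, fell by 0.46 ± 0.13 on the log2 scale (adjusted p = 0.0413), from 23.5, 18.4 and 19.0 CPM to 11.7 to 17.1 CPM. Nkx2-2, Vcan and Bcas1, named after their values were seen, rose with overlapping groups. The list had 2 higher calls with the composition trend removed, 2 without NTg 4, and 0 without NTg 6 or without M337V 1 to 3. Enpp6 had an adjusted p = 0.0883 with the composition trend removed and 0.0851 without NTg 4, and Cspg4 one of 0.0924 and 0.186.

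Enzymes that cleave nucleotides and phosphodiesters outside the cell moved beside them. Of 10 measured ectonucleotidase genes 4 rose and 1 fell (median 0.21), and the same 5 were separating. Enpp1 (chr10:24637914-24712159), which makes pyrophosphate and hydrolyses ATP, stood at 29.3, 30.3 and 23.1 CPM in NTg and 32.9 to 56.1 CPM (median 51.2) in transgenic cord, a log2 difference of 0.82 ± 0.14 (edgeR adjusted p = 0.0093). WT 8 was its lowest transgenic library and the nearest to NTg. Enpp2, autotaxin, which makes lysophosphatidic acid and is abundant in oligodendrocytes, stood at 630, 667 and 584 CPM against 735 to 884 (median 815), a log2 difference of 0.39 ± 0.06 (adjusted p = 0.00814). Enpp3 was named after its values were seen and rose by 0.62 ± 0.18. Entpd2, an ATP-degrading enzyme of glia, fell by 0.30 ± 0.08 on the log2 scale, from 13.4, 12.9 and 13.97 CPM to between 10.2 and 11.9. The 4 higher calls were 2 without NTg 4, 2 with the composition trend removed and 0 without NTg 6. Entpd2 was not called in any of these 3 settings (edgeR adjusted p = 0.0935, 0.16 and 0.16) and was called under 13 of 21 alternatives.

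Microglia, the resident macrophages of the cord, contributed 6 of 22 measured genes that rose, with none that fell and a list median of 0.23. P2ry12 (chr3:59216272-59262871), the ADP receptor that marks the homeostatic state, stood at 29.8, 28.4 and 22.96 CPM in the NTg libraries 4, 5 and 6 and between 35.9 and 45.1 CPM (median 38.6) in transgenic cord. Its log2 difference was 0.53 ± 0.09 (edgeR adjusted p = 0.00814). Ctss, a lysosomal cysteine protease, stood at 76.5, 90.8 and 68.0 CPM against 93.7 to 109 (median 98.9), a log2 difference of 0.35 ± 0.08. Trem2 differed by 0.11 (adjusted p = 0.554) and Tyrobp by -0.06 (adjusted p = 0.734), both named after their values were seen. The 6 calls were 3 with the composition trend removed, 2 without NTg 4, 1 without M337V 1 to 3 and 0 without NTg 6.

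Cholesterol is a main lipid of myelin and is made inside the nervous system. Of 26 measured genes of its synthesis and control 6 rose and none fell, 7 were separating, and the median was 0.11. Cyp51 (chr5:4081145-4104746), the lanosterol demethylase, stood at 154, 164 and 165 CPM in NTg and 191 to 235 CPM (median 203) in transgenic cord, a log2 difference of 0.38 ± 0.06 (edgeR adjusted p = 0.00814). Msmo1, a sterol C4 oxidase, stood at 163, 160 and 127 CPM against 167 to 223 (median 207), a log2 difference of 0.44 ± 0.09. Stard4, which carries sterols between membranes, differed by 0.32 ± 0.06 without overlap. Hmgcs1, the synthase at the start of the pathway, rose by 0.41 ± 0.10, and Idi1 and Ggps1, enzymes of isoprenoid units, by 0.38 ± 0.08 and 0.29 ± 0.06. These 3 were named after their values were seen. The regulator Srebf2, also named after its values were seen, had a log2 difference of -0.12 (adjusted p = 0.217). The 6 calls were 3 with the composition trend removed, 4 without NTg 4 and 0 without NTg 6.

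The promoter of Hmgcs1 from RefSeq (GRCm38.p6, chr13:119690101-119690400, plus strand) is shown because the gene is a textbook target of the sterol-responsive factor SREBP, and capitals mark the sterol element.
Hmgcs1: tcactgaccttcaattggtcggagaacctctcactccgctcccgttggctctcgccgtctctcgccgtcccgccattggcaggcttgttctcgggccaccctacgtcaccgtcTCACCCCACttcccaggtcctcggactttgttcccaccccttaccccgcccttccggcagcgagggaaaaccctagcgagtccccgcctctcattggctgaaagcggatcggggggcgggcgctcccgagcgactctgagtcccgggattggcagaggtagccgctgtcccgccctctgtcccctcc
TCACNCCAC, searched on both strands, was found in 1 of 8 promoters of the separating cholesterol genes, that of Hmgcs1. It was found in 1.2% of promoters of separating higher genes and in 1.2% of promoters of genes tested.

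**Figure D4:**
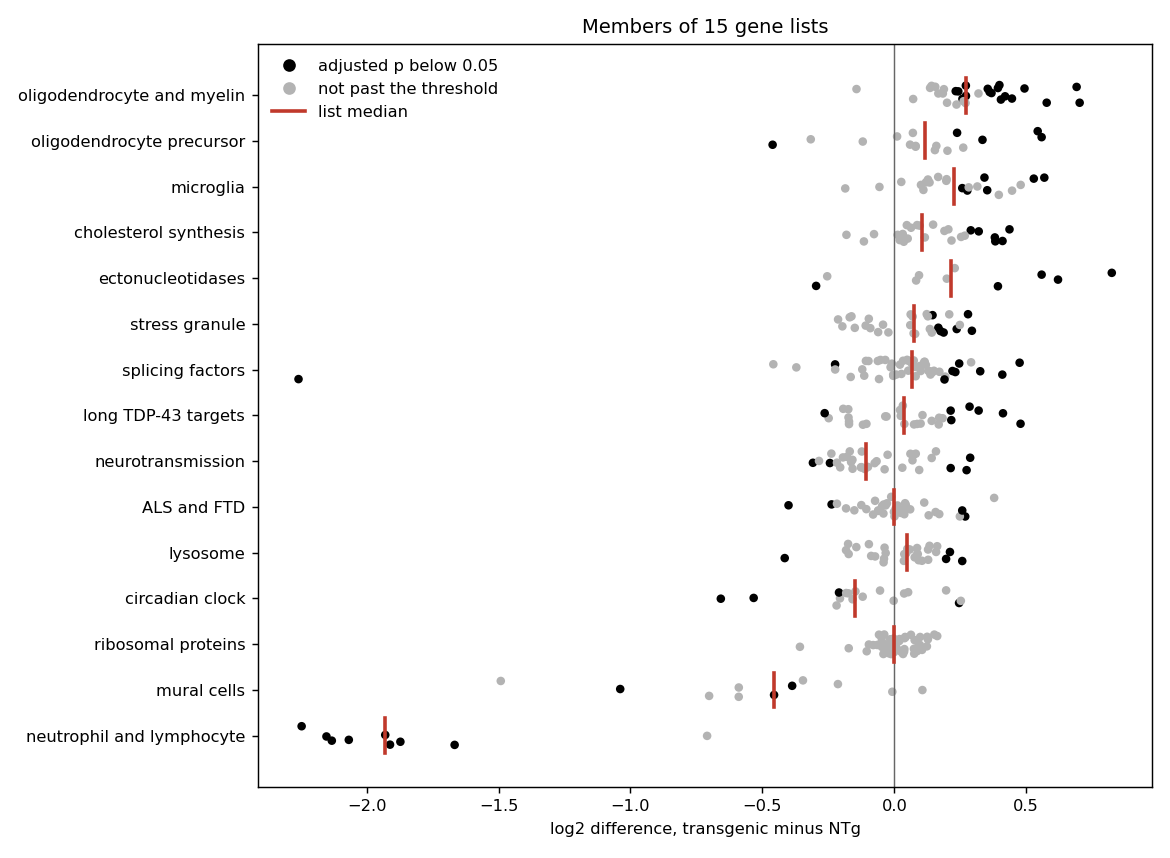
Each row is a gene list and each point a measured member, placed by its log2 difference between transgenic and NTg cord (x axis). Black points passed an adjusted p of 0.05, grey points did not, and red lines are list medians. Myelin genes lie almost wholly to the right (median 0.27), neutrophil and lymphocyte genes to the left (median -1.93), and ribosomal proteins around 0.

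Genes for RNA-binding proteins were the next group. Stress granules are assemblies of stalled messenger RNA and RNA-binding proteins, into which TDP-43 can move. Of 29 measured genes on the stress granule list 7 rose and none fell, 10 were separating higher and 1 lower, and the median was 0.07. Tial1 (chr7:128439777-128461717), a nucleator of the granules, stood at 139, 131 and 125 CPM in NTg and 145 to 178 CPM (median 161) in transgenic cord, a log2 difference of 0.29 ± 0.06 (edgeR adjusted p = 0.0173). Fmr1, the fragile X translation repressor, stood at 87.7, 82.4 and 74.7 CPM against 90.4 to 102 (median 96.2), a log2 difference of 0.24 ± 0.05. Pum2, which binds messenger tails, differed by 0.18 ± 0.04. G3bp1 and G3bp2, scaffolds of the granules, were named after their values were seen: G3bp1 had a log2 difference of -0.09 (adjusted p = 0.23) and G3bp2 one of 0.13 (adjusted p = 0.118). The list's median G+C content was 43.4%, and with the composition trend removed 0 of its genes were called higher or lower and the median was 0.01. Its 7 calls were 2 without M337V 1 to 3 and 3 when NTg 4 was left out, and 0 without NTg 5 or without NTg 6.

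Splicing factors and related proteins gave 7 of 51 measured genes higher and 2 lower, against 5.80% higher and 4.21% lower over all genes tested. The list had a median of 0.07 and a median G+C content of 43.2%. Qk (chr17:10202601-10319854), which encodes the quaking proteins that splice and transport myelin messengers, stood at 1255, 1162 and 1096 CPM in NTg 4, 5 and 6. In the transgenic libraries it ran from 1485 to 1794 CPM (median 1656), a log2 difference of 0.47 ± 0.07 (edgeR adjusted p = 0.00473), and it was called under every alternative. Mbnl2 and Mbnl1, muscleblind splicing regulators, differed by 0.33 ± 0.06 and 0.25 ± 0.05, both without overlap. Nova2, a splicing regulator of neurons, stood at 67.9, 62.4 and 66.0 CPM in NTg and 52.9 to 61.5 CPM (median 53.8) in transgenic cord, and fell by 0.22 ± 0.06 on the log2 scale. The other lower gene was Mbnl3, named after its values were seen, at 1.42, 0.591 and 1.02 CPM against 0.102 to 0.465. With the composition trend removed 3 were higher and 1 lower and the list median was -0.01. Without NTg 4 there were 3 higher and 0 lower, and without NTg 6 there was 1 higher. Nova2 was not called in any of these 3 settings (edgeR adjusted p = 0.192, 0.135 and 0.142).

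TDP-43 binds the long introns of many neuronal genes, and 29 such long targets were measured. Of these 6 rose and 1 fell, 8 were separating higher and 2 lower, and the median was 0.04. Ptprd (chr4:75941238-78211961), a receptor phosphatase that organises synapses, stood at 455, 476 and 445 CPM in NTg and 573 to 659 CPM (median 609) in transgenic cord, a log2 difference of 0.41 ± 0.05 (edgeR adjusted p = 0.00391). Cadm2 (chr16:66655421-67620908), a synaptic and axonal adhesion molecule, stood at 210, 204 and 210 CPM against 249 to 276 (median 260), a log2 difference of 0.32 ± 0.04. Both were called under every alternative. Nkain2, a protein that interacts with the sodium pump, differed by 0.48 ± 0.08. Nlgn2, the neuroligin of inhibitory synapses, fell by 0.26 ± 0.06 on the log2 scale, from 240, 218 and 244 CPM to between 180 and 212. Nrxn3 (-0.03, adjusted p = 0.809), named after its values were seen, did not pass. With the composition trend removed the list had 4 higher and 0 lower, and its median was -0.03. Without NTg 4 it also had 4 higher and 0 lower.

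Of 32 measured genes of transmission between neurons 3 were called higher and 2 lower, with a median of -0.11, against 5.80% higher and 4.21% lower over all genes tested. Glrb, which anchors the glycine receptor, differed by 0.29 ± 0.07 and the postsynaptic scaffold Homer1 by 0.21 ± 0.06. Grin1, the obligatory subunit of NMDA receptors, stood at 344, 331 and 387 CPM in NTg and 250 to 309 CPM (median 295) in transgenic cord, and fell by 0.31 ± 0.07 on the log2 scale (adjusted p = 0.0215). Syn1, synapsin of synaptic vesicles, fell by 0.24 ± 0.06. This list had 0 calls with the composition trend removed. Without NTg 4 there were 1 higher and 0 lower, and without NTg 6 there were 0 higher.

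Among 36 measured genes linked to ALS and frontotemporal dementia 2 were called higher and 2 lower (median -0.0004), near the shares over all genes tested (5.80% and 4.21%). Tmem106b (chr6:13069759-13089269), a lysosomal membrane protein, stood at 269, 261 and 249 CPM in NTg and 292 to 331 CPM (median 309) in transgenic cord, a log2 difference of 0.26 ± 0.05 (edgeR adjusted p = 0.0109). Chmp2b, of the endosomal sorting complex, differed by 0.27 ± 0.06. Dctn1, the large dynactin subunit of axonal transport, stood at 340, 346 and 370 CPM against 276 to 325 (median 292), and fell by 0.24 ± 0.06 on the log2 scale. Anxa11, a tether of RNA granules to lysosomes, fell by 0.40 ± 0.10. None of these 4 was called with the composition trend removed. Without NTg 4 the list had 2 higher and 0 lower.

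In the lysosome list 3 of 31 genes were called higher (Tmem106b, the sterol carrier Npc2 and the membrane protein Lamp2) and 1 lower, with a median of 0.05. Over all genes tested 5.80% were called higher and 4.21% lower. Npc2 alone was called with the composition trend removed, and Lamp2 went from 0.20 to 0.03 (adjusted p = 0.748). The list had 1 higher without NTg 4 and 0 without NTg 6. Gaa, the acid glucosidase that degrades glycogen, stood at 368, 341 and 366 CPM in NTg and 229 to 310 CPM (median 276) in transgenic cord, a log2 difference of -0.42 ± 0.08 (edgeR adjusted p = 0.0158), and had an adjusted p = 0.053 with the composition trend removed. Of 17 circadian clock genes 1 was called higher and 3 lower, against 5.80% and 4.21% of all genes tested. Clock rose by 0.25 ± 0.04, while Per2 (17.3, 19.8 and 21.5 CPM in NTg, 11.1 to 15.1 in transgenic cord) fell by 0.53 ± 0.10 on the log2 scale and Cry1 by 0.21 ± 0.06. With the composition trend removed 0 were higher and 1 lower, Clock stood at 0.14 (adjusted p = 0.102), and Cry1 was called under 5 of 21 alternatives. Without NTg 4 the clock list had 1 higher and 2 lower. The third lower clock gene, Per1, overlapped between groups and was named after its values were seen. The time of day of dissection is not given in the sources used here.

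Lists of other cells and functions had few or no calls. Neuronal markers gave 0 higher and 1 lower (Slc32a1, the vesicular transporter of inhibitory neurons, log2 -0.25 ± 0.07) among 15. Motor neuron markers gave 0 higher and 2 lower among 16, namely Ache, acetylcholinesterase (-0.25 ± 0.05), and Mmp9. Astrocyte markers gave 1 higher among 16, S100b (725, 860 and 678 CPM in NTg, 927 to 1094 in transgenic cord), a calcium-binding protein that oligodendrocytes also make. Of 57 ribosomal protein genes and 48 genes of the respiratory chain none was called or separating, with medians of -0.0028 and 0.04. Glucocorticoid response genes gave 1 higher, the receptor gene Nr3c1 (127, 122 and 116 CPM in NTg, 138 to 150 in transgenic cord), and 1 lower among 14, and interferon-induced genes gave 1 higher among 21. Genes of the heat shock response, endothelial, ependymal, meningeal and Schwann cell markers and both Hox lists gave 0 calls each. Members above 0 were 0 of 17 meningeal, 1 of 11 Schwann cell and 1 of 15 endothelial genes, with medians of -0.52, -0.66 and -0.14. Without NTg 4 these medians were -0.03, 0.03 and -0.18. The medians of the heat shock, ependymal and rostral Hox lists were 0.08, 0.03 and 0.02. The tissue was checked on markers of neurons, motor neurons, astrocytes and oligodendrocytes, which were detected in every library, and on caudal Hox genes. Of 11 measured caudal Hox genes 6 were at 0 in a library, and the median of that list was -0.71. Slc32a1, Ache and Nr3c1 were not called with the composition trend removed. Without NTg 4, Slc32a1, Ache, Mmp9 and S100b were not called (edgeR adjusted p = 0.0804, 0.0532, 0.0542 and 0.0522), and Mmp9 differed by -0.43. Without NTg 6 these genes were not called either. Nr3c1 was called without NTg 4 but not without NTg 6.

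More than 2-fold differences were seen in 90 lower and 3 higher separating genes. Of 9 measured neutrophil and lymphocyte markers 8 fell and none rose, 6 were separating, and the median was -1.93. Mpo (chr11:87793581-87804413), the myeloperoxidase of neutrophil granules, stood at 15.1, 3.99 and 7.82 CPM in the NTg libraries 4, 5 and 6 and between 0.942 and 2.58 CPM (median 2.07) in transgenic cord, a log2 difference of -2.25 ± 0.34 (edgeR adjusted p = 0.00622). Ngp, a granule protein of maturing neutrophils, stood at 113, 34.5 and 56.3 CPM against 7.01 to 29.7 (median 16.2), a log2 difference of -2.07 ± 0.36. NTg 4 was the highest library for both genes and NTg 5 the lowest of the controls. Camp, the cathelicidin peptide, Elane, neutrophil elastase, and Cd177, a neutrophil surface antigen, fell by 2.13, 2.15 and 2.13 on the log2 scale, in the same order of NTg libraries.

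Red cell genes gave a mixed picture. Rhag (log2 -2.24 ± 0.50), Kel (-2.10 ± 0.45) and Ermap (-2.10 ± 0.32), which encode red cell membrane proteins and blood group antigens, fell, and so did Slc4a1, the anion exchanger of the red cell (51.6, 16.8 and 28.4 CPM in NTg, 2.77 to 16.4 in transgenic cord). Without NTg 4, Rhag (-1.69, edgeR adjusted p = 0.108), Kel (-1.59, 0.0958) and Slc4a1 (-1.39, 0.113) were not called. Without NTg 6 these genes were not called either, whereas Ermap was called in both settings. The haemoglobin gene Hbb-bs, named after its values were seen, had a log2 difference of 0.40 (adjusted p = 0.683), and 6 of the 8 measured erythroid genes had values above 0. The summed level of neutrophil and lymphocyte markers was 496, 148 and 236 CPM in the NTg libraries 4, 5 and 6 and ran from 27.6 to 129 CPM in transgenic cord, without overlap. The 8 neutrophil and lymphocyte calls were 2 without NTg 4, 2 without M337V 1 to 3, 1 without NTg 6 and 6 with the composition trend removed. Mmp9, an enzyme both of neutrophil granules and of fast motor neurons, fell by 0.83 ± 0.18 on the log2 scale and had the same order of NTg libraries as Mpo (35.4, 16.5 and 20.3 CPM). The part of blood cells in its fall was not tested.

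Jchain (chr5:88519809-88527891), which joins the antibodies made by plasma cells, stood at 3.67, 4.58 and 3.91 CPM in NTg and 1.12 to 1.76 CPM (median 1.41) in transgenic cord. Its log2 difference was -1.50 ± 0.17 (edgeR adjusted p = 0.00391), and in contrast to the neutrophil genes the 3 NTg libraries lay close together. It was called under every alternative. Csrp3, a muscle LIM protein, fell by 2.73 ± 0.52 on the log2 scale, with NTg 6 (4.28 CPM) and NTg 5 (2.32 CPM) highest and WT 8 (1.05 CPM) the highest transgenic library. The summed muscle and fat markers had the same high libraries: NTg 6 had 1412 CPM, NTg 5 926 CPM and WT 8 804.5 CPM, the third control, NTg 4, had 213.5 CPM, and the remaining 6 libraries ran from 38.4 to 253 CPM. Of the 17 muscle and fat markers 0 were called and the median was -1.91, but without NTg 4 and WT 8 together 13 were called lower. Their part in the level of Csrp3 was not tested.

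Mural cell genes, of pericytes and vessel muscle, fell in 3 of 11 cases, with none higher and a median of -0.46. Acta2, smooth muscle actin, stood at 8.67, 10.0 and 8.29 CPM in NTg and 2.83 to 7.24 CPM (median 3.99) in transgenic cord, a log2 difference of -1.04 ± 0.23 (edgeR adjusted p = 0.0181). Klf2, a factor induced by blood flow in endothelium and counted here among immediate early genes, stood at 10.1, 11.4 and 12.2 CPM against 3.63 to 8.11 (median 5.02), and fell by 0.97 ± 0.22 on the log2 scale. The mural list had 0 calls without NTg 4. Tap2, a peptide transporter of antigen presentation, fell by 0.38 ± 0.07 and Sesn2, a sestrin of the stress response, by 0.33 ± 0.08. Tap2, with the composition trend removed, stood at -0.26 (adjusted p = 0.0614) and Sesn2 at -0.20 (adjusted p = 0.13). Neither was called without NTg 4 or without NTg 6, and Klf2 was not called in any of these 3 settings.

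**Figure D5:**
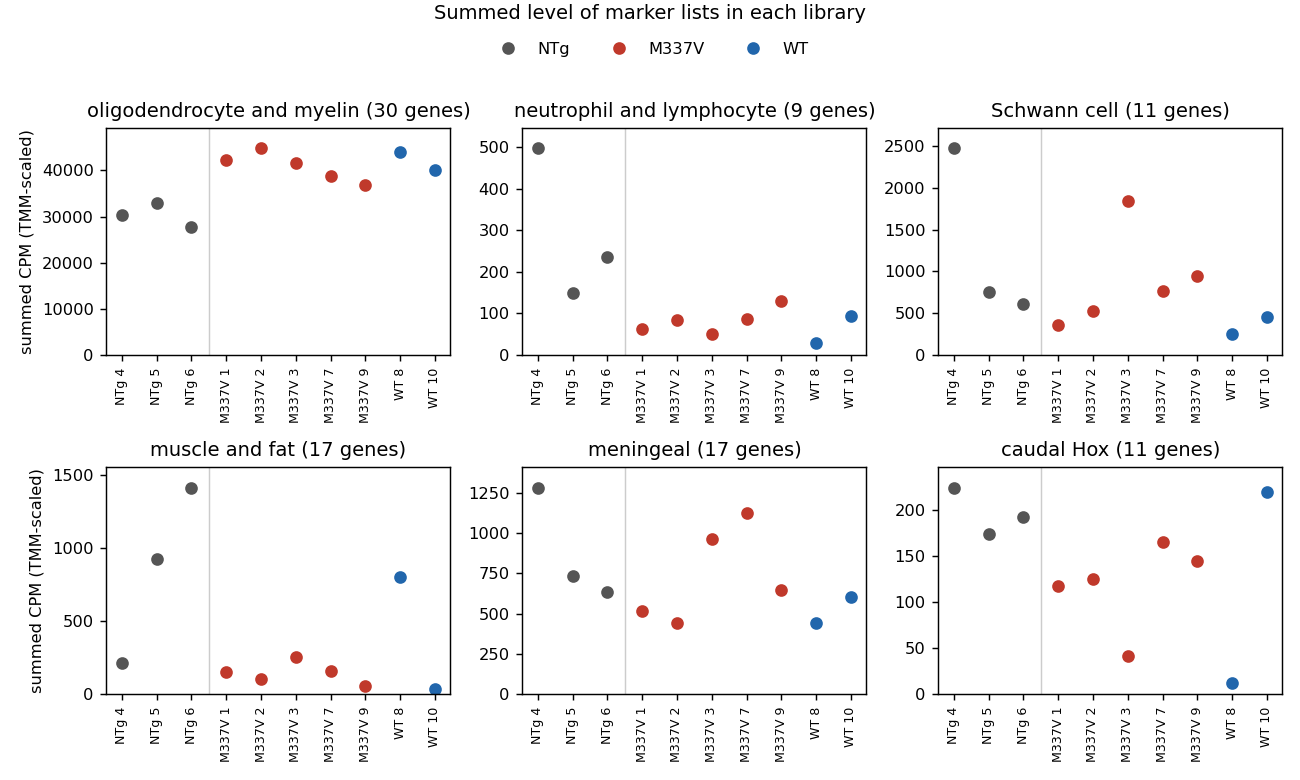
Each panel sums the CPM (y axis, from 0) of the measured genes of 1 marker list in each of the 10 libraries (x axis), in grey for NTg, red for M337V and blue for WT. Myelin and neutrophil sums do not overlap between groups, whereas Schwann cell, muscle, meningeal and caudal Hox sums do, with NTg 4 highest for Schwann cells (2472 CPM) and WT 8 lowest for caudal Hox genes (12.6 CPM).

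The gene with the widest gap was Tpm3-rs7 (chr14:113314608-113316754), a related sequence of the tropomyosin gene Tpm3. Its level was 23.1, 10.0 and 20.5 CPM in the NTg libraries 4, 5 and 6 and between 0.161 and 0.47 CPM (median 0.314) in transgenic cord, a gap of 4.42 on the log2 scale. The log2 difference was -5.79 ± 0.27 (edgeR adjusted p = 4.775e-07). Tpm3 itself (chr3:90072649-90100902) went the other way, from 86.2, 99.0 and 82.6 CPM to between 104 and 118 CPM (median 116), a log2 difference of 0.35 ± 0.06 (edgeR adjusted p = 0.00923). The coding sequences of both are 747 bases long and 744 bases are identical (99.6%), with a longest identical run of 620 bases. The 3 differing bases, in capitals, all lie in bases 38 to 127 of the coding sequence, which are printed to show how close the copies are.
Tpm3-rs7: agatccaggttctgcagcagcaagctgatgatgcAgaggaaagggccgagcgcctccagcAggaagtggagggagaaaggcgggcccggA
Tpm3: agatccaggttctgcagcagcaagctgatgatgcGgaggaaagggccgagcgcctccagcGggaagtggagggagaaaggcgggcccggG
Reads from most of this sequence match both genes, so the level of each rests on how shared reads were counted, which the sources used here do not give, and both values are uncertain for that reason.

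Beside it, a gap of at least 1 on the log2 scale was found for Jchain and, named after their values were seen, for the lincRNA Gm42743 and the histone pseudogene Hist1h2al. Gm42743 stood at 1.08, 0.542 and 1.35 CPM in NTg and 0.0523 to 0.262 CPM in transgenic cord. Hist1h2al stood at 0.93, 0.394 and 0.559 CPM in NTg, and 6 of the 7 transgenic libraries were at 0. The 3 higher separating genes over 2-fold, Tmprss11d, Neurod4 and Cdh15, also named after their values were seen, were all low. Neurod4, a neurogenic transcription factor, stood at 0.147, 0.246 and 0.326 CPM in NTg and 0.364 to 1.28 CPM in transgenic cord.

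Relative to the spread inside the groups, the widest gaps among higher genes were in Etv1, Nab1, Rpgrip1l, Ptprd and Cadm2. Etv1 (chr12:38779380-38870484), an ETS transcription factor, stood at 82.0, 76.4 and 73.3 CPM in NTg and 109 to 129 CPM (median 121) in transgenic cord, a log2 difference of 0.63 ± 0.06 (edgeR adjusted p = 0.00136). Nab1 (chr1:52457294-52500679), a corepressor of EGR factors, stood at 49.8, 49.9 and 46.6 CPM against 59.8 to 66.1 (median 63.0), a log2 difference of 0.37 ± 0.05. Rpgrip1l, of the ciliary transition zone, stood at 35.3, 37.3 and 36.7 CPM against 47.2 to 54.2 (median 51.5), a log2 difference of 0.47 ± 0.06. Among lower genes the corresponding ones beside Tpm3-rs7, Jchain and Hrh3 were Cemip2, a hyaluronidase of the cell surface (19.3, 19.8 and 19.5 CPM against 14.3 to 15.7), and Tmem198, a membrane protein of the WNT pathway (16.7, 16.6 and 16.7 against 12.5 to 14.01). The differences of Cemip2 and Tmem198 were -0.37 ± 0.06 and -0.31 ± 0.06. Cemip2 was called under 20 of 21 alternatives, all but that without NTg 6. Tmem198 was called under 16 of 21. With the composition trend removed it stood at -0.19 (edgeR adjusted p = 0.0972), and without NTg 4 and without NTg 6 its adjusted p was 0.0516 and 0.088.

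Other large steps on the higher side were in genes at low levels: 4833423E24Rik (log2 0.90 ± 0.25), Dmrta1 (0.90 ± 0.23), Clrn1 (0.83 ± 0.23), Npb (0.80 ± 0.20), Spink10 (0.78 ± 0.17) and Dach2 (0.71 ± 0.16). All but Spink10 lost their call without NTg 4, without NTg 6 and with the composition trend removed. Spink10 lost its call without NTg 5 and without NTg 6. With the composition trend removed the groups of 4833423E24Rik overlapped. The neuropeptide gene Npb stood at 2.15, 2.76 and 1.96 CPM in NTg and 3.31 to 5.34 CPM in transgenic cord. Of the 84 genes named by the rule for named genes, 76 were called, 43 higher and 33 lower. Among them 15 were called under every alternative that gave a value, among these Ugt8a, Ermn, Tspan2, Qk, Etv1, Nab1, Rpgrip1l, Ptprd, Cadm2, Tpm3-rs7, Mpo, Ermap, Hrh3 and Jchain. Without NTg 6, 61 of the 76 called genes lost their call, and 36 did with the composition trend removed and 36 without NTg 4.

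Separating genes lie close together at the edge of the rule. The narrowest gaps were those of Pkn2, a protein kinase (46.5, 49.1 and 46.6 CPM in NTg, 49.1 to 55.5 in transgenic cord), and on the lower side Rnf19b, a ubiquitin ligase (32.7, 33.1 and 34.0 CPM against 28.2 to 32.7). Just outside were Brwd3, a bromodomain protein (23.9, 20.7 and 23.05 CPM against 23.9 to 28.8), and the GTPase regulator Dlc1 (64.7, 56.5 and 57.5 CPM against 47.5 to 56.5).

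The rule did not compare both transgenic genotypes, but it kept only genes with all M337V and all WT libraries on the same side of NTg. The separating genes were therefore not chosen independently of the difference between M337V and WT. Of the 2188 separating genes edgeR called 0 between M337V and WT cord (0% of all genes tested), limma-voom called 0, and 147 (6.72%) had an unadjusted p below 0.05, against 6.66% of all genes tested. The median log2 difference of M337V minus WT was -0.05 in higher and 0.03 in lower separating genes. With 2 WT mice, one of which is WT 8, this comparison has little precision, and without WT 10 edgeR called 1 separating gene. Set against NTg one genotype at a time, M337V differed in 651 genes (4.29%) and WT in 857 (5.64%), and among separating genes 601 were called for M337V, 652 for WT and 376 for both. Of the separating higher genes 395 were called for M337V (2.67% of all genes tested were called higher) and 469 for WT (3.59%), and of the lower genes 206 for M337V (1.61% of all genes tested) and 183 for WT (2.05%). These comparisons share the NTg libraries. The rule also chose the separating genes on the same values, so their counts describe that choice and are no separate evidence for either genotype. The median difference in separating higher genes was 0.22 for M337V and 0.27 for WT, and in lower genes -0.25 and -0.28. Among the 84 named genes Rhag had the largest distance between M337V and WT, and differed from NTg by -1.97 in M337V and -3.27 in WT (adjusted p = 0.797 for M337V against WT). Ugt8a gave 0.66 and 0.80, Tpm3-rs7 -5.81 and -5.74, and Etv1 0.59 and 0.72.

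The separating share ran from 11.2% of the genes tested on chromosome 8 to 19.7% on chromosome 3, where 103 were higher and 42 lower. Around the Rosa26 locus on chromosome 6, where the transgene was placed, 3 of 28 genes tested within 1 Mb were separating (10.7%), all lower, and 14.7% within 5 Mb. Over all genes tested 14.4% were separating in either direction and 6.37% were separating lower. Thumpd3 (chr6:113046225-113068273) and Setd5 (chr6:113077365-113153435), the neighbours of the locus, overlapped between groups, with log2 differences of 0.20 ± 0.06 (edgeR adjusted p = 0.0656) and -0.01 ± 0.06 (adjusted p = 0.947). The sign of Setd5 changed between alternatives. The 3 were Lhfpl4 (log2 -0.13 ± 0.04), a partner of GABA-A receptors, Brpf1 (-0.26 ± 0.07), a chromatin reader, and Prrt3 (-0.21 ± 0.06), named after their values were seen.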

How the data were processed

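The table deposited by the authors holds raw whole-number counts of reads for each gene in 10 libraries. The submitters' processing notes list Salmon 0.8.2, STAR 2.4.2a, Subread 1.4.6 with featureCounts, Trimmomatic 0.32, Picard 2.6.0, FastQC 0.11.2, R 3.3.0 and DESeq2 1.14.1, and the genome build is not given in the sources used here. Names and coordinates came by identifier from a GENCODE annotation (GRCm38), which named 21774 identifiers and left 250 unnamed. Genes passing filterByExpr with the genotype labels (minimum count 10, minimum total 15) were tested with edgeR 4.0.16 (glmQLFit and glmQLFTest, TMM) in R 4.3.3, with 1 mean for the 7 transgenic and 1 for the 3 NTg libraries. M337V and WT were compared in a fit with 1 mean per genotype. Separation was read on TMM-scaled CPM. P-values measure the spread between mice. Members, 34 gene lists and tests were chosen with earlier results of these data known, so no list is independent support. Named by rule were the transgene, Tardbp and the Rosa26 neighbours, the 10 largest changes and 5 widest gaps per direction, up to 3 genes per list and direction by smallest p, and the genes at the edge. Alternatives were other scalings, filters and groupings, limma 3.58.1 (voom), DESeq2 1.42.0, each library left out, and removal of G+C and length trends (lowess span 0.3). The test was checked on simulated counts. Some genes are not reported here.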

Additional observations from a re-analysis of the deposited data

Results flagged for a closer look

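Of the 84 named genes, 4 had a transgenic library set apart from the other 6 by a gap that is wide for the group's range. Chance gives such a library in about 1 of 20 groups. Clrn1 was at 2.98 CPM in WT 8 and between 1.56 and 2.04 CPM in the others. Enpp1 was at 32.9 CPM in WT 8, its value nearest to NTg, and between 47.7 and 56.1 CPM in the others. Enpp6 was at 82.5 CPM in WT 8 and between 46.8 and 61.9 CPM in the others. Npc2 was at 149 CPM in M337V 2 and between 136 and 140 CPM in the others. All 4 genes were separating on the higher side, and 3 of them had WT 8 as the distant library.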

How the results depend on the processing

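Counts of called genes moved more than directions did, and the cause was not tested. A gap of at least 0.1 left 550 separating genes (311 higher, 239 lower), and CPM without TMM gave 800 higher. DESeq2 called 2296 genes (1407 higher, 13 splicing genes higher) and limma-voom 2326 (1086 lower). Without NTg 4 and WT 8, 606 genes were called (396 higher, 210 lower) and 3680 were separating (1952 and 1728), with 10 myelin, 3 microglia, 3 stress granule and 4 splicing genes higher and 5 neutrophil and lymphocyte genes lower. Without M337V 1 to 3, 434 were called (358 and 76) and 3383 were separating (1952 higher), with 7 myelin, 3 cholesterol, 1 microglia, 2 stress granule and 4 splicing genes higher and 2 neutrophil and lymphocyte genes lower. Without M337V 7 and 9, 1490 were separating lower. Fewer libraries make separation easier to meet, so the larger separating counts of these settings do not show a cleaner difference. With G+C and length trends removed, 491 were called (326 and 165) and 1425 were separating (585 lower), with 3 cholesterol, 3 microglia, 0 stress granule and 3 splicing genes higher. Leaving out 1 library at a time gave 36 to 1694 called genes (30 to 1034 higher, 6 to 710 lower), 2310 to 3558 separating (1277 to 1792 higher, 930 to 1770 lower) and 0 to 1 member called between M337V and WT. It gave 4 to 18 myelin, 0 to 7 cholesterol, 0 to 6 microglia, 0 to 8 stress granule, 1 to 10 splicing and 2 to 7 long TDP-43 target genes higher, and 1 to 8 neutrophil and lymphocyte genes lower. Exact permutation p ran from 0.0476 to 0.222 for human TARDBP, 0.0476 to 0.548 for Tardbp and 0.0238 to 0.0556 for their sum. Setd5 turned positive at 0.0043 with 1 mean per genotype, 0.0065 without M337V 1 to 3, 0.0133 without M337V 7 and 9, 0.0217 with composition trends removed and 0.0054, 0.0061, 0.0077, 0.012 and 0.0126 with single libraries left out, where its lowest value was -0.0378 and its highest 0.0126. Tardbp turned to -0.0456 with composition trends removed. No paired analysis was possible because the groups share no animal number. With 3 NTg mice, of which NTg 4 carried human TARDBP reads at the transgenic level, the number of controls limits every count.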

Other observations

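Mki67, Top2a, Cenpf, Hmgb2, Cd36 and Aqp1 were named after their values were seen, and none is on a gene list used here. Mki67, the Ki-67 proliferation antigen, stood at 29.6, 11.8 and 19.2 CPM in the NTg libraries 4, 5 and 6 and between 3.19 and 9.46 CPM in transgenic cord, a log2 difference of -1.72 ± 0.31 (edgeR adjusted p = 0.0105). Top2a, a topoisomerase of replicating cells, fell by 1.18 ± 0.28 on the log2 scale, Cenpf, a kinetochore protein, by 1.18 ± 0.28 and the chromatin protein Hmgb2 by 1.06 ± 0.17. Their groups did not overlap, and NTg 4 was the highest library for each, as it was for the neutrophil genes. The part of blood cells in these values was not tested. Cd36, a fatty acid receptor, stood at 9.06, 8.08 and 11.1 CPM in NTg against 1.90 to 4.99 CPM, and the water channel Aqp1 at 12.4, 6.95 and 11.2 CPM against 1.67 to 4.81 CPM.

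Xaf1, an interferon-induced gene, was called higher (log2 1.78 ± 0.49, edgeR adjusted p = 0.0417) although its groups overlapped. M337V 1 (9.93 CPM) and M337V 2 (10.8 CPM) lay near the NTg libraries (10.3, 10.7 and 8.19 CPM), while the other 5 transgenic libraries ran from 34.9 to 53.6 CPM.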
